A study of Mus musculus with 36 samples.

Results

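Autophagy genes were followed in the livers of mice with and without thyroid hormone receptor beta. The 10 genes *Ulk1*, *Map1lc3a*, *Map1lc3b*, *Gabarapl1*, *Sqstm1*, *Bnip3*, *Tfeb*, *Wipi1*, *Atg14* and *Becn1* were taken by name from the 54532 genes of the deposited count table, and each matched 1 gene. Livers came from 36 male mice aged 2 to 3 months on a C57Bl/6NCrl background, fed chow and kept in 12 h light and 12 h dark. Of these, 18 were homozygous for a systemic *Thrb* knockout that affects both receptor isoforms and impairs DNA binding (THRB-/-, herein THRBKO), and 18 were heterozygous controls (THRB+/-, called wild type in the labels, herein THRBWT). The controls therefore also carried 1 altered *Thrb* allele. Mice were sampled every 4 h, at ZT2, ZT6, ZT10, ZT14, ZT18 and ZT22, with 3 mice per genotype and time, where ZT is zeitgeber time in hours after lights on, and the 3 mice of a group carry the letters a, b and c. Each mouse gave 1 library of polyadenylated RNA, sequenced in read pairs without regard to strand.

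Autophagy delivers parts of the cell to lysosomes for breakdown. The ULK kinase starts the process when nutrients are scarce, the Beclin complex makes the lipid signal that recruits further proteins to a growing membrane, proteins of the ATG8 family are attached to that membrane, and receptors tie cargo such as damaged mitochondria or ubiquitinated protein to them. In liver, autophagy is known to supply amino acids, glucose and fatty acids between meals, and transcription factors such as TFEB regulate many of its genes.

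Total counts ranged from 29063273 to 39913574 in THRBWT libraries and from 31008555 to 42530551 in THRBKO libraries. *Thrb* had from 24.3 to 38.5 CPM (counts scaled to equal library size by TMM factors) with a median of 27.9 in THRBWT and from 26.2 to 37.7 CPM with a median of 31.9 in THRBKO livers. A count over the whole gene takes no account of which exons were read, so this level gave no check of the labels. Summed over 5 hepatocyte markers, levels were between 61207 and 88559 CPM in THRBWT and between 68052 and 92520 CPM in THRBKO livers, whereas 5 markers each of Kupffer, stellate, endothelial, biliary and red blood cells summed to at most 935 CPM and those of lymphocytes and neutrophils to at most 5.20 CPM. None of these 8 lists held a gene with an adjusted p under 0.05 for genotype. In whole liver, fewer cells of a type and less RNA per cell cannot be told apart.

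The sequence just upstream of a gene is where many time-of-day regulators bind, and it is shown for the 3 genes with the largest daily amplitude. RefSeq promoters (GRCm38.p6) were matched for 8 of the 10 genes, at 10 start sites. *Map1lc3a* and *Becn1* had no entry. The strands below run 5′ to 3′ in the direction of the gene and end where the deposited gene begins, and capitals mark the only match to a searched motif.
Bnip3 (chr7:138909520-138909756, minus strand): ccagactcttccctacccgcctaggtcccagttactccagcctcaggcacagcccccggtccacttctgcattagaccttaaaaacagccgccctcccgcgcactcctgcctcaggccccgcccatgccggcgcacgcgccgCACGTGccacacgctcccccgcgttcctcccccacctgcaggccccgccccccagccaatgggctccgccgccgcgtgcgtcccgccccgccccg
Gabarapl1 (chr6:129532942-129533159, plus strand): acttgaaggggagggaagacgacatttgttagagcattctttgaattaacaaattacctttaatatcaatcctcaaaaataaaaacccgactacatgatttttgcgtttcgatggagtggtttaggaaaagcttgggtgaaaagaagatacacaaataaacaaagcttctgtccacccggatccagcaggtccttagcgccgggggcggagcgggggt
Ulk1 (chr5:110810098-110810331, minus strand): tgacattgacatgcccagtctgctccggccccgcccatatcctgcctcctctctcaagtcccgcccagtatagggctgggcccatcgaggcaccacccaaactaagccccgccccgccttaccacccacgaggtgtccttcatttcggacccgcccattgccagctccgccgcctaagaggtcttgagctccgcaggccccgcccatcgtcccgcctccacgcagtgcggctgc
Letters G and C made up 72.6% of the *Bnip3*, 66.2% of the *Ulk1* and 43.6% of the *Gabarapl1* stretch. Both strands of the 250 bases before each start site were searched for the E-box CACGTG, the D-box TTANGTAA, the ROR half-site AGGTCA, the CLEAR element of TFEB TCACGTGA (which contains the E-box), the cAMP response element TGACGTCA, the FOXO site GTAAACA and the antioxidant response element TGACNNNGC, and for the direct repeat of the thyroid hormone response element. The 1 match was an E-box in *Bnip3* that begins 108 bases upstream of the RefSeq start site. An E-box occurs in 6.02% of 32851 mouse promoters of this length, and the other motifs in 2.06% (D-box), 14% (ROR half-site), 0.785% (CLEAR element), 1.55% (cAMP response element), 3.17% (FOXO site), 10.2% (antioxidant response element) and 0.0152% (thyroid hormone response element). A match describes letters and does not show that a factor binds.

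Most of these genes differed in level between sampling times. Of the 10 genes, 8 differed between sampling times with genotype in the model (adjusted p under 0.05, quasi-likelihood test of edgeR, Benjamini-Hochberg adjusted over 17994 tested genes), and *Map1lc3a* and *Wipi1* did not pass. Among all tested genes 45% did so, a share not matched for expression level. Within each letter, numbers in the deposited column names lay in separate ranges for the light and the dark times. What these numbers mean was not given, and a difference between sets of mice was not tested. *Gabarapl1* and *Sqstm1*, the receptor for ubiquitinated cargo, had their highest means at ZT6 in both genotypes, *Ulk1* and *Map1lc3b* at ZT6 or ZT10, *Atg14* and *Tfeb* at ZT10, the mitophagy receptor *Bnip3* at ZT10 or ZT14 and *Becn1* at ZT14. Amplitudes were largest for *Gabarapl1*, *Bnip3* and *Ulk1*. For genotype 0 of the 10 were called, where 0.95% of all genes were, and the intervals of their differences included changes of up to 0.25 on the log2 scale.

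**Figure D1:**
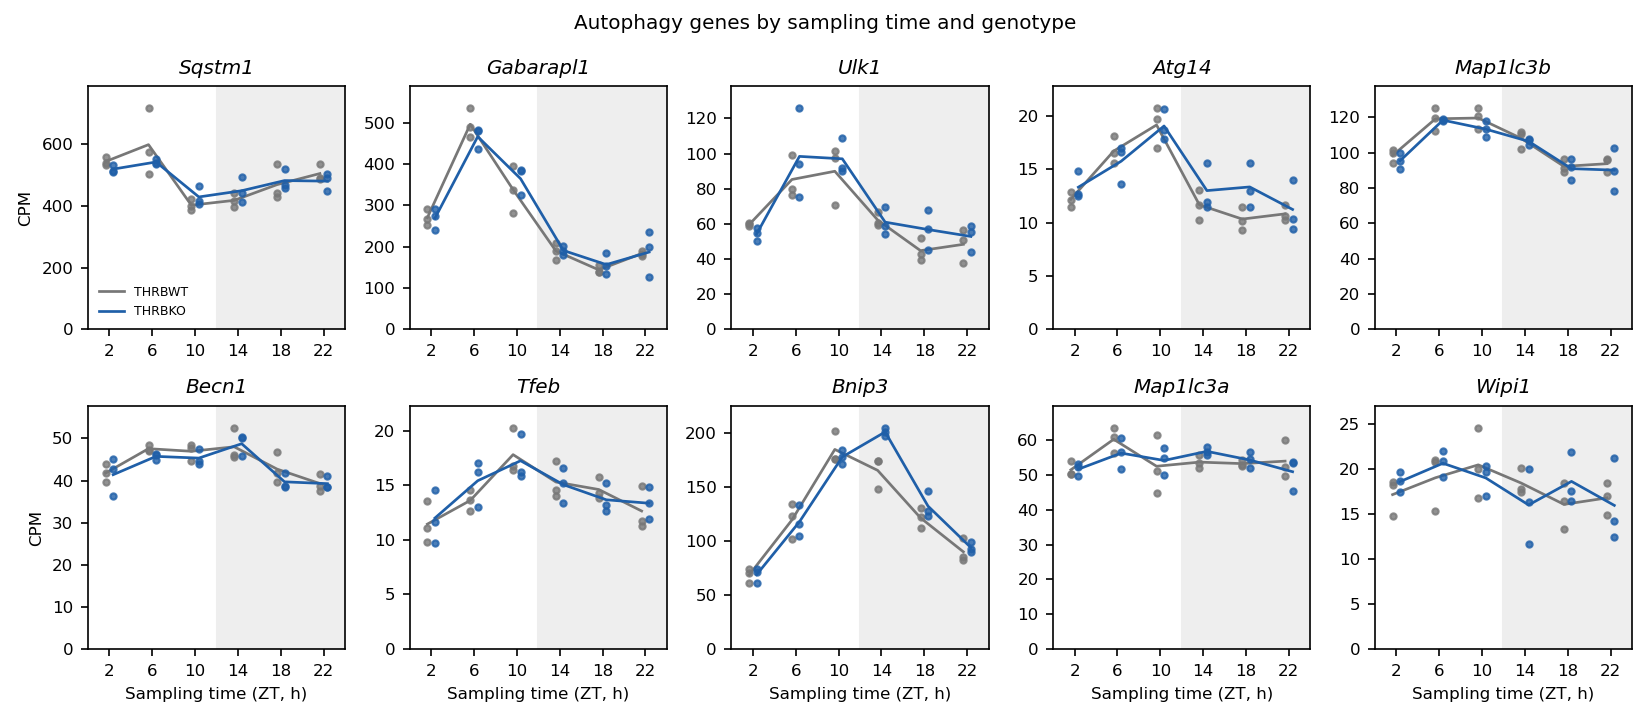
CPM of the 10 autophagy genes (vertical axes, starting at 0) against sampling time in ZT hours, with 1 point per mouse, lines through the mean of 3 mice, grey for THRBWT and blue for THRBKO, and the dark phase shaded. *Gabarapl1* was highest at ZT6 and lowest at ZT18 in both genotypes, *Bnip3* was highest at ZT10 in THRBWT and at ZT14 in THRBKO livers, and the mice of *Wipi1* at its highest and lowest times overlapped in both genotypes.

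*Ulk1* (ENSMUSG00000029512, chromosome 5, 110784488 to 110810097, minus strand) encodes the kinase that starts autophagosome formation. At ZT2 the 3 THRBWT mice had 58.5, 59.9 and 60.2 CPM and the 3 THRBKO mice 50.3, 54.8 and 57.6 CPM. At ZT6 they had 76.6, 80.0 and 99.3 against 75.2, 94.2 and 126 CPM. At ZT10 they had 70.7, 97.5 and 102 against 90.2, 91.8 and 109 CPM. All 12 mice of ZT6 and ZT10 were therefore above the 6 mice of ZT2. The values were 59.1, 60.6 and 66.9 against 54.5, 58.7 and 69.7 CPM at ZT14. At ZT18 they were 39.7, 42.7 and 51.9 against 45.4, 57.3 and 67.6 CPM. At ZT22 they were 37.9, 50.8 and 56.4 against 44.2, 55.4 and 58.9 CPM. The genotypes overlapped at 5 of 6 times, the exception being ZT2, and the ranges at the highest and lowest times did not overlap within either genotype. Over the 10 genes and 6 times, the genotypes failed to overlap in 4 of 60 cases, against 9.96% of all such cases among the tested genes. The 4 were *Ulk1* at ZT2, *Becn1* at ZT6, and *Bnip3* and *Map1lc3a* at ZT14. The highest and lowest times did not overlap in both genotypes for 9 of the 10 genes, all but *Wipi1*, against 46.6% of all genes. The highest mean was 2.01 times the lowest in THRBWT (89.96 ± 16.8 at ZT10, 44.8 ± 6.40 CPM at ZT18, SD, n = 3 each) and 1.86 times in THRBKO livers (98.4 ± 25.6 at ZT6, 52.8 ± 7.69 CPM at ZT22). The adjusted p for time was 1.07e-08 (edgeR).

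*Atg14* and *Becn1* encode subunits of the class III phosphatidylinositol kinase complex that makes the lipid signal of the early autophagosome. *Atg14* (ENSMUSG00000037526, chromosome 14, 47540893 to 47570649, minus strand), the subunit that directs the complex to autophagy, had 17.0, 19.7 and 20.7 CPM in THRBWT and 17.8, 18.6 and 20.6 CPM in THRBKO livers at ZT10. At ZT18 it had 9.32, 10.2 and 11.5 against 11.5, 12.9 and 15.6 CPM, and at ZT22 10.2, 10.6 and 11.6 against 9.40, 10.3 and 13.9 CPM. No mouse of ZT18 or ZT22 reached the lowest mouse of ZT10. From highest to lowest mean *Atg14* fell 1.85-fold in THRBWT and 1.70-fold in THRBKO livers (adjusted p for time 7.14e-08, edgeR). *Becn1* (ENSMUSG00000035086, chromosome 11, 101285952 to 101302286, minus strand), the scaffold of the complex, moved over a narrow range. Its highest means were at ZT14, with 45.6, 46.0 and 52.5 CPM in THRBWT and 45.9, 50.04 and 50.3 CPM in THRBKO mice. Its lowest were at ZT22, with 37.6, 38.6 and 41.6 against 38.4, 38.4 and 41.0 CPM. The 2 times did not overlap, with ratios of 1.22 in THRBWT and 1.24 in THRBKO livers (adjusted p for time 1.96e-05, edgeR). Exons of *Cntd1* on the opposite strand overlap 3104 bases of *Becn1*, and *Cntd1* held 219 counts in all against 54082 for *Becn1*. How reads of the shared bases were counted was not given.

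*Wipi1* (ENSMUSG00000041895, chromosome 11, 109573331 to 109611967, minus strand) encodes a protein that binds the lipid made by this complex. It ranged from 13.3 to 24.6 CPM with a median of 17.98 in THRBWT and from 11.7 to 22.0 CPM with a median of 18.9 in THRBKO livers. Even its highest and lowest times overlapped in each genotype (ratios of 1.27 and 1.29), and its adjusted p for time was 0.281 (edgeR).

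Of the ATG8 family, whose proteins are joined to the autophagosome membrane, *Gabarapl1* moved most. *Gabarapl1* (ENSMUSG00000030161, chromosome 6, 129533160 to 129542346, plus strand) had 252, 268 and 291 CPM in THRBWT and 240, 275 and 292 CPM in THRBKO mice at ZT2. By ZT6 it had 465, 490 and 536 against 438, 481 and 482 CPM. It was down to 282, 338 and 395 against 326, 384 and 385 CPM at ZT10. The 6 mice of ZT6 were above every mouse of the other times. *Gabarapl1* then had 169, 190 and 210 against 180, 191 and 201 CPM at ZT14. Its lowest means followed at ZT18, with 138, 138 and 156 against 133, 152 and 185 CPM. At ZT22 it was at 179, 182 and 190 against 126, 199 and 236 CPM. The genotypes overlapped at 6 of 6 times, and the THRBKO mice of ZT22 were spread more widely than the THRBWT mice. Peak and trough differed 3.45-fold in THRBWT and 2.98-fold in THRBKO livers (adjusted p for time 2.81e-15, edgeR).

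*Map1lc3b* (ENSMUSG00000031812, chromosome 8, 121590361 to 121598760, plus strand) encodes LC3B, the family member most used to mark autophagosomes. It had 113, 121 and 125 CPM at ZT10 and 89.0, 91.4 and 96.3 CPM at ZT18 in THRBWT mice. THRBKO mice had 118, 118 and 119 CPM at ZT6 and 78.5, 89.3 and 102 CPM at ZT22. These highest and lowest times did not overlap, with ratios of 1.297 and 1.31 (adjusted p for time 1.41e-08, edgeR). *Map1lc3a* (ENSMUSG00000027602, chromosome 2, 155276297 to 155278073, plus strand), which encodes LC3A, stayed between 44.8 and 63.5 CPM with a median of 53.1 in THRBWT and between 45.3 and 60.5 CPM with a median of 54.2 in THRBKO livers. Its highest and lowest times did not overlap either (ratios of 1.17 in THRBWT and 1.11 in THRBKO livers). The adjusted p of *Map1lc3a* for time was 0.169 (edgeR), and 0.0158 without the mice of letter c. The remaining members of the family, *Gabarap* and *Gabarapl2*, had adjusted p-values for time of 0.715 and 0.449 at mean levels of 189 and 50.8 CPM.

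Reads of *Map1lc3b* can be split with near-identical copies. The pseudogene *Gm6055* matches it at 99.7% over 378 bases and held 12844 counts over the 36 libraries, against 127733 for *Map1lc3b*. With the counts of 5 copies added, *Map1lc3b* again had an adjusted p under 0.05 for time and not for genotype.

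The cargo receptors *Sqstm1* and *Bnip3* moved in opposite ways from ZT6 to ZT10. *Sqstm1* (ENSMUSG00000015837, chromosome 11, 50199366 to 50210827, minus strand), a receptor for ubiquitinated protein that is itself broken down by autophagy, had 533, 540 and 558 CPM in THRBWT and 510, 512 and 534 CPM in THRBKO mice at ZT2. At ZT6 it had 502, 575 and 716 against 535, 538 and 553 CPM. At ZT10 it had 386, 398 and 422 against 406, 416 and 464 CPM. All 6 mice of ZT10 were below all 12 of ZT2 and ZT6, and the mouse at 716 CPM was the highest of all 36. Levels were 397, 415 and 441 against 413, 442 and 492 CPM at ZT14. They were 429, 442 and 535 against 457, 469 and 519 CPM at ZT18. They were 487, 490 and 536 against 449, 489 and 502 CPM at ZT22. The genotypes overlapped at 6 of 6 times. The highest mean, at ZT6, was thus followed directly by the lowest, at ZT10. A single 24 h cosine cannot follow means in that order. Their ratio was 1.49 in THRBWT, where the mouse at 716 CPM raised the ZT6 mean, and 1.26 in THRBKO livers (adjusted p for time 6.98e-06, edgeR). With both genotypes in the model, ZT6 was not told apart from ZT2 (log2 difference 0.10, adjusted p 0.394, edgeR). Nor was ZT14 told apart from ZT10 (0.061, adjusted p 0.616, edgeR). Exons of *Mrnip* on the opposite strand overlap 580 bases of *Sqstm1*, and *Mrnip* held 3791 counts against 597256. Here too the counting of reads from the shared bases was not given.

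*Bnip3* (ENSMUSG00000078566, chromosome 7, 138890836 to 138909519, minus strand) encodes a receptor on the outer mitochondrial membrane for the removal of mitochondria. It had 61.0, 70.3 and 74.6 CPM in THRBWT and 61.2, 71.1 and 74.6 CPM in THRBKO mice at ZT2. At ZT6 it had 102, 123 and 134 against 105, 116 and 133 CPM. At ZT10 it had 176, 177 and 202 against 171, 178 and 185 CPM. These 3 times did not overlap with each other, and the genotypes overlapped at each. At ZT14 the THRBWT mice had 148, 174 and 175 CPM and the THRBKO mice 198, 201 and 205 CPM. The values were 112, 122 and 130 against 123, 128 and 146 CPM at ZT18. They were 82.7, 85.0 and 103 against 90.2, 92.5 and 99.4 CPM at ZT22. ZT14 was the only time at which the genotypes did not overlap for *Bnip3*, and there THRBKO exceeded THRBWT livers by 0.28 on the log2 scale (standard error 0.11, adjusted p 0.928, edgeR), while 0.0167% of all genes passed at that time. Highest and lowest means differed 2.69-fold in THRBWT (ZT10 and ZT2) and 2.92-fold in THRBKO livers (ZT14 and ZT2), and the adjusted p for time was 8.39e-16 (edgeR). Copies of *Bnip3* can share its reads. The transcript *AC160336.1* matches it at 98.3% over 858 bases and held 5261 counts, and *Gm6532* held 1116, against 158667 for *Bnip3*. *AC160336.1* is 93147 bases long and only 0.921% of it matches, so its reads need not come from the matching part. The call for time held with the counts of 6 matching transcripts added. These counts made up 3.88% of the sum, too little to be a strict check.

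*Tfeb* (ENSMUSG00000023990, chromosome 17, 47737030 to 47792419, plus strand) encodes a transcription factor of lysosomal and autophagy genes. It had 16.4, 16.8 and 20.3 CPM in THRBWT and 15.8, 16.2 and 19.7 CPM in THRBKO mice at ZT10. At ZT2 it had 9.76, 11.05 and 13.5 against 9.75, 11.6 and 14.6 CPM. The 2 times did not overlap, and the means differed 1.56-fold in THRBWT and 1.44-fold in THRBKO livers (adjusted p for time 2.47e-04, edgeR).

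Successive sampling times were then compared with both genotypes in 1 model. From ZT2 to ZT6, 7 of the 10 genes rose (*Ulk1*, *Map1lc3b*, *Gabarapl1*, *Bnip3*, *Tfeb*, *Atg14* and *Becn1*), where 6.83% of all genes did. The largest of these steps were log2 differences of 0.84 for *Gabarapl1* (standard error 0.10), 0.79 for *Bnip3* (standard error 0.079) and 0.69 for *Ulk1* (standard error 0.12). From ZT6 to ZT10 *Gabarapl1* and *Sqstm1* fell, each by 0.46 on the log2 scale (4.26% of all genes fell), while *Bnip3* rose by 0.61 (3.71% rose). From ZT10 to ZT14 the early genes *Ulk1*, *Gabarapl1* and *Atg14* fell, by 0.60, 0.89 and 0.63 on the log2 scale (9.52%). *Map1lc3b*, *Gabarapl1*, *Bnip3* and *Becn1* fell from ZT14 to ZT18 (3.47%). *Bnip3* fell further from ZT18 to ZT22 (0.711%) and from ZT22 to ZT2 (0.906%), whereas *Gabarapl1* rose from ZT22 to ZT2 by 0.54 (0.734%).

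Rhythms were described by a 24 h cosine per genotype. In THRBWT livers 8 of the 10 genes had a rhythm past the threshold (quasi-likelihood test of a sine and a cosine term by edgeR, 35.1% of all genes), and in THRBKO livers 7 did (31.5%). *Sqstm1* was past it in THRBWT livers alone, with adjusted p-values of 7.18e-04 in THRBWT and 0.116 in THRBKO livers. The difference of its rhythm between genotypes was itself not detected (edgeR, unadjusted p = 0.250, adjusted p = 1). Without a cosine, the effect of time was past the threshold for the same 8 genes in THRBWT livers (26.4% of all genes) and for 6 of the 10 in THRBKO livers (24.9%), with adjusted p-values of 0.0696 for *Sqstm1* and 0.0755 for *Tfeb*. DESeq2 gave 8 genes in THRBKO livers, with adjusted p-values of 0.0332 for *Sqstm1* and 0.0417 for *Tfeb*. *Becn1* and *Tfeb* lost calls within a single genotype when the mice of a letter were left out.

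**Figure D2:**
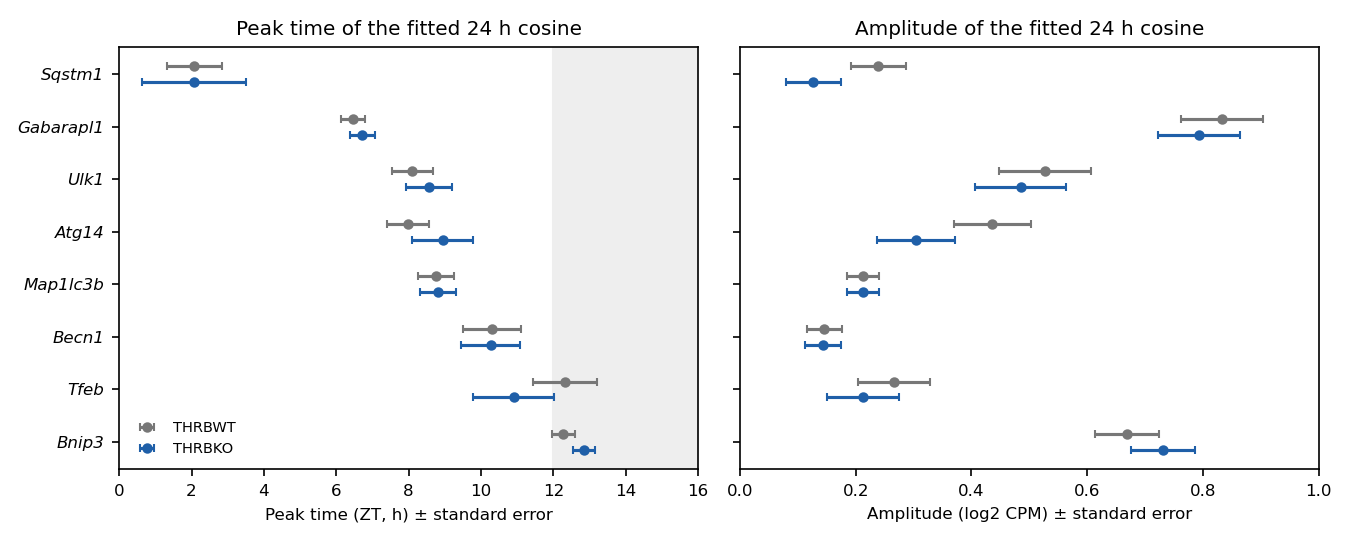
Peak time in ZT hours (left, dark phase shaded) and amplitude in log2 CPM (right) of the fitted 24 h cosine for the 8 genes that differed between sampling times, grey for THRBWT and blue for THRBKO, with bars of 1 standard error. The 7 genes other than *Sqstm1* had peaks from ZT6.47 for *Gabarapl1* in THRBWT to ZT12.9 for *Bnip3* in THRBKO livers, and the bars of the genotypes for peak time overlapped for each gene.

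With 1 curve for both genotypes, the fitted peak of *Sqstm1* was at ZT2.07 (standard error 0.711 h). Its highest mean was at ZT6, which was not told apart from ZT2. The cosine does not follow the fall of *Sqstm1* from ZT6 to ZT10, so its peak was left out of the order below. *Gabarapl1* peaked at ZT6.59 (0.230 h), *Ulk1* at ZT8.33 (0.412 h), *Atg14* at ZT8.38 (0.497 h), *Map1lc3b* at ZT8.79 (0.341 h), *Becn1* at ZT10.3 (0.549 h), *Tfeb* at ZT11.7 (0.703 h) and *Bnip3* at ZT12.6 (0.218 h). Without *Sqstm1*, neighbours in this order were told apart in 2 of 6 cases. *Ulk1* peaked 1.73 h after *Gabarapl1* (95% interval 0.911 to 2.56 h) and *Becn1* 1.495 h after *Map1lc3b* (0.192 to 2.80 h). The gaps were 0.0493 h between *Ulk1* and *Atg14* (-0.779 to 0.877 h), 0.416 h between *Atg14* and *Map1lc3b* (-0.707 to 1.54 h), 1.40 h between *Becn1* and *Tfeb* (-0.607 to 3.41 h) and 0.886 h between *Tfeb* and *Bnip3* (-0.490 to 2.26 h), and these intervals include 0.

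Amplitudes of this shared curve, in log2 CPM, were 0.81 for *Gabarapl1*, 0.70 for *Bnip3*, 0.51 for *Ulk1*, 0.37 for *Atg14*, 0.24 for *Tfeb*, 0.21 for *Map1lc3b*, 0.18 for *Sqstm1* and 0.14 for *Becn1*, with standard errors from 0.019 to 0.054. Peak exceeded trough of the curve 3.08-fold for *Gabarapl1*, 2.63-fold for *Bnip3* and 2.01-fold for *Ulk1*.

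The genotypes were compared next. In the model with time, 0 of the 10 genes had an adjusted p under 0.05 (edgeR, against the 0.95% given above) and 0 an unadjusted p under 0.05 (12.1% of all genes), and DESeq2 also called 0. Differences were small. *Atg14* had the smallest unadjusted p (0.0923 by edgeR), with 13.5 ± 3.53 CPM in THRBWT and 14.3 ± 3.04 CPM in THRBKO livers (SD, n = 18 each) and a log2 fold change of 0.10 (95% interval -0.018 to 0.22, adjusted p 0.507, edgeR). *Ulk1* had 65.0 ± 19.5 and 70.05 ± 23.1 CPM, a log2 fold change of 0.10 (-0.039 to 0.25, adjusted p 0.596, edgeR), and *Bnip3* had 125 ± 42.7 and 132 ± 47.6 CPM, a log2 fold change of 0.066 (-0.026 to 0.16, adjusted p 0.601, edgeR). *Map1lc3b* was the gene whose mean lay on the same side at 6 of 6 times, lower in THRBKO livers, with a log2 fold change of -0.039 (-0.097 to 0.020, adjusted p 0.642, edgeR). For *Becn1* it was -0.034 (-0.095 to 0.027), with a lower mean at 5 of 6 times. The remaining 5 genes had log2 fold changes between -0.0074 for *Sqstm1* and 0.028 for *Gabarapl1*. The median over the 10 genes was 0.018, and over all tested genes it was -0.001. The largest change that any of the 10 intervals included was 0.25, the upper bound of *Ulk1*.

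**Figure D3:**
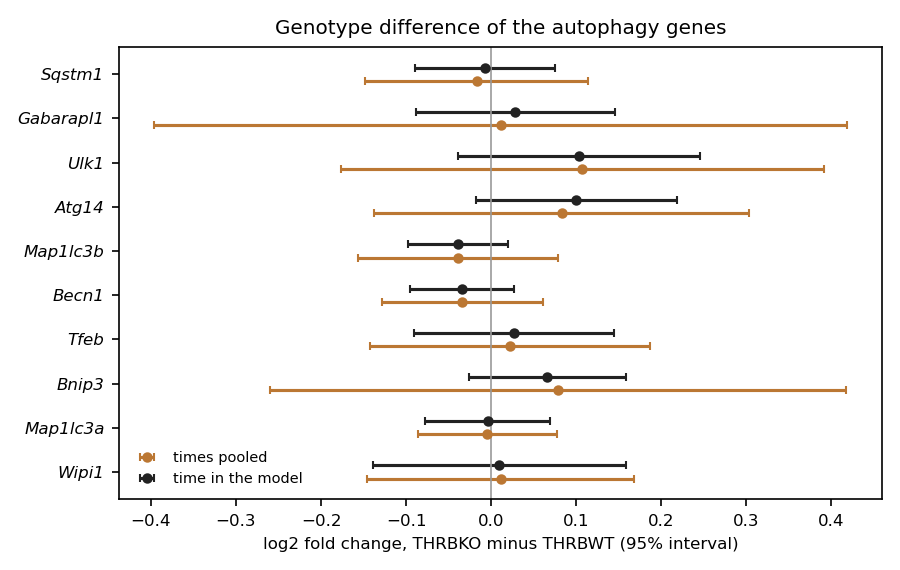
Log2 fold change of THRBKO minus THRBWT (horizontal axis) for each of the 10 genes with 95% intervals, black with sampling time in the model and orange with times pooled. All intervals include 0, and those of *Gabarapl1* and *Bnip3*, the genes of largest amplitude, were widest with times pooled.

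With times pooled, again 0 of the 10 genes passed (0.361% of all genes), and the daily rise and fall then counted as spread. The standard error for *Gabarapl1* was 0.20 in place of 0.057 with time in the model. Whether the genotype effect varied with time was tested with 5 interaction contrasts, which called 0 of the 10 and 0% of all genes (2.69% at an unadjusted p under 0.05). Within single times 0 of the 10 were called, where 0.0278% of all genes passed at ZT2, 0.0111% at ZT6, 0.0167% at ZT10 and ZT14 and 0.0222% at ZT18 and ZT22. The smallest unadjusted p-values were those of *Bnip3* at ZT14 (given above) and of *Atg14* at ZT18, which was higher in THRBKO livers by 0.37 on the log2 scale (standard error 0.14, adjusted p 0.839, edgeR).

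Amplitude and peak time were also compared between genotypes. The joint test of both called 0 of the 10 genes (0% of all genes, 3.07% at an unadjusted p under 0.05). *Atg14* had an amplitude of 0.44 log2 CPM in THRBWT and 0.30 in THRBKO livers, a difference of -0.13 (95% interval -0.32 to 0.060). *Sqstm1* had 0.24 and 0.13, a difference of -0.11 (-0.25 to 0.025). None of the 10 genes reached an unadjusted p under 0.05 for amplitude, where 1.76% of all genes did. Peak times were compared where the rhythm was past the threshold in both genotypes, which held for 7 of the 10 genes (24.5% of all genes). *Bnip3* peaked at ZT12.3 in THRBWT and ZT12.9 in THRBKO livers, 0.575 h later (95% interval -0.308 to 1.46 h), and *Atg14* 0.961 h later (-1.12 to 3.05 h). *Tfeb* had the largest difference, -1.41 h and thus earlier in THRBKO livers (-4.31 to 1.49 h). These 3 values depended on which mice were kept. Without 1 letter in turn they ranged from 0.0712 to 1.26 h for *Bnip3*, from -0.191 to 2.59 h for *Atg14* and from -3.56 to 0.333 h for *Tfeb*, and without letter a for *Bnip3* and *Atg14* and without letter c for *Tfeb* they passed an unadjusted p under 0.05. For *Map1lc3b* and *Becn1* the differences were 0.0556 h (-1.38 to 1.49 h) and -0.0347 h (-2.35 to 2.28 h). With all mice, none of the 7 genes reached an unadjusted p under 0.05 for peak time, where 4.53% of 4411 genes did, and none of the 10 did for mesor, the mean level of the curve (11.1% of all genes).

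Levels of different genes were compared per length of gene, as CPM per kilobase of the deposited gene length (RPKM). The mean over 36 libraries was 145 ± 19.8 RPKM for *Sqstm1* (SD), 135 ± 59.6 for *Gabarapl1*, 56.8 ± 19.7 for *Bnip3*, 45.8 ± 3.53 for *Map1lc3a*, 13.8 ± 1.63 for *Map1lc3b*, 10.4 ± 3.27 for *Ulk1*, 6.21 ± 0.576 for *Becn1*, 4.10 ± 0.644 for *Wipi1*, 3.21 ± 0.758 for *Atg14* and 2.53 ± 0.425 for *Tfeb*. The ranges of neighbours in this order overlapped in 8 of 9 cases, the exception being *Map1lc3a* and *Map1lc3b*. That gap rests on the deposited lengths, 1181 bases for *Map1lc3a* and 7517 for *Map1lc3b*. Without division by length *Map1lc3b* was the higher, with a mean of 104 CPM against 54.1 CPM. Which of their mRNAs is more abundant is therefore not settled. Within a library the order varied with the hour. *Sqstm1* was above *Gabarapl1* in 24 of 36 libraries, and *Bnip3* above *Map1lc3a* in 24 of 36.

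The genes also varied together to different degrees. Over the 36 libraries, which share time points and depth, the highest Pearson correlation of log2 CPM within the set was 0.88 between *Ulk1* and *Atg14*, and it was 0.68 after the mean of each genotype and time had been subtracted. *Map1lc3b* and *Gabarapl1* had 0.79 and 0.67 in the same way. *Sqstm1* and *Bnip3* had -0.56 over the libraries and 0.33 within groups. Among all tested genes with a mean of at least 1 CPM, the pattern most like *Ulk1* was that of *Chuk* (0.91), and then came *1600014C10Rik* and *Pcgf3*. *Gabarapl1* was nearest to *Casp6* (0.97), *Wdtc1* and *Fbxo21*, and *Bnip3* to *Gys2* (0.96), which encodes liver glycogen synthase, *Sord* and *Por*. *Sqstm1* was nearest to *Atf5* (0.90), *Psmd11* and *Thg1l*, *Map1lc3b* to *Suds3* (0.88), *Tbc1d20* and *Pnpla2*, and *Becn1* to *Slc6a9* (0.83), *Atg16l1* and *Otud3*. *Atg14* was nearest to *Ulk1*, *Syne2* and *Zbtb44*. *Tfeb* was nearest to *AC160336.1* (0.81), the transcript that matches part of *Bnip3*, *Hsf4* and *Ubac1*.

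A further 80 genes of the pathway, in 10 groups, were set beside these 10. All were tested, and 58 of them (72.5%) differed between sampling times, against the 45% of all genes given above. The shares were not matched for expression level, and all tested genes include any that summed to at least 100 counts. By the peak of the cosine in THRBWT livers, 42 of these 58 (72.4%) and 6 of the 8 autophagy genes (75%) peaked in the light phase, against 50.2% of all 8106 genes that differed between times. A rhythm past the threshold was not required for this, and *Sqstm1*, whose course the cosine does not follow, is included. *Tfeb* and *Bnip3* fell just outside, both at ZT12.3 (standard errors 0.886 and 0.319 h). Shares of genes that differed between times were highest for cargo receptors and for transcription regulators, 10 of 11 each, and lowest for the rest of the ATG8 family, 0 of 2. The remaining groups had 3 of 4 (ULK complex), 4 of 6 (class III kinase complexes), 7 of 9 (ATG9, ATG2 and WIPI proteins), 7 of 11 (conjugation of ATG8 and ATG12), 6 of 7 (autophagosome fusion), 5 of 8 (lysosomal membrane and proton pump) and 6 of 11 (upstream kinases and mTORC1).

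**Figure D4:**
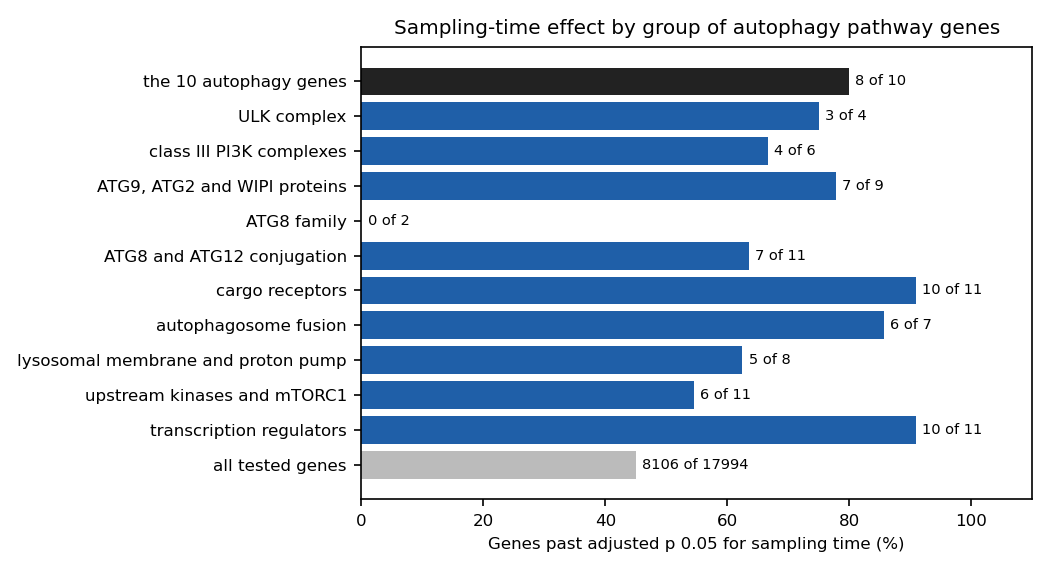
Share of genes with an adjusted p under 0.05 for sampling time (horizontal axis, %) in the 10 autophagy genes (black), in 10 groups of other pathway genes (blue) and in all tested genes (grey), with counts beside the bars. The bars run from 0 of 2 for the rest of the ATG8 family to 10 of 11 for cargo receptors and transcription regulators.

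In the ULK complex, *Rb1cc1*, the scaffold of the complex, peaked at ZT8.33 in THRBWT livers, beside ZT8.11 for *Ulk1*, while *Atg101* peaked at ZT0.734. Of the class III kinase complexes, the lipid kinase *Pik3c3* peaked at ZT5.75 and *Uvrag*, a partner of Beclin, at ZT10.6. *Wdr45*, *Atg2a* and *Wipi2*, which act at the growing membrane, peaked at ZT7.85, ZT8.82 and ZT7.40. Among cargo receptors, *Retreg1* and *Calcoco1*, receptors for endoplasmic reticulum, had amplitudes of 0.55 and 0.56 log2 CPM and peaks at ZT6.18 and ZT6.35 in THRBWT livers. The mitophagy receptor *Fundc1* peaked at ZT19.6, far from *Bnip3* at ZT12.3, whereas the cargo receptor *Bnip3l* peaked nearer to *Bnip3*, at ZT10.8. *Atg4d* and *Atg7*, enzymes of the conjugation of ATG8 proteins, peaked at ZT10.6 and ZT3.38, *Stx17*, which fuses autophagosomes with lysosomes, at ZT8.31, and the lysosomal calcium channel *Mcoln1* at ZT10.04. Of the genes upstream, *Flcn*, which acts on mTORC1 and TFEB at the lysosome, had an amplitude of 0.87 (standard error 0.090) and peaked at ZT6.44, and *Mtor*, the kinase of that complex, peaked at ZT7.95 with 0.27. *Foxo1* and *Foxo3*, transcription factors active in fasting, peaked at ZT10.97 and ZT10.7 in THRBWT livers, where *Tfeb* peaked at ZT12.3 (standard error 0.886 h). *Mitf*, a relative of TFEB, peaked at ZT21.3. All 11 clock genes differed between times, and *Nr1d1* peaked at ZT7.40 in THRBWT and ZT7.81 in THRBKO livers.

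*Foxo1* was the only 1 of the 80 genes past the threshold for genotype (1 higher and 0 lower in THRBKO livers, where 0.506% of all genes were higher and 0.445% lower). It ranged from 19.2 to 37.5 CPM with a median of 24.05 in THRBWT and from 20.8 to 41.9 CPM with a median of 28.4 in THRBKO livers, and its mean was higher in THRBKO livers at 6 of 6 times. The ranges overlapped, and the difference was 0.19 on the log2 scale (standard error 0.043, adjusted p 0.0215, edgeR). Whether the call of *Foxo1* holds with DESeq2, with mice left out or with the letters in the model was not tested. The 80 genes had a median log2 fold change of 0.015, and 50 of them (62.5%) were positive, against 49.5% of all tested genes.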

How the data were processed

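Poly-A RNA of 36 livers was sequenced by the authors in pairs without strand information. They removed low-quality reads, mapped the rest to GRCm38 with HISAT2, counted reads per gene with FeatureCounts and deposited raw counts for 54532 genes, with a gene length. Versions, annotation release and treatment of reads with several matches were not given in the sources used here. Without strand, reads from bases that overlapping genes share cannot be assigned to either by strand, and how they were counted was not given. The counts of an overlapping gene therefore do not measure this effect. *Gabarapl1* shares 570 of its 2013 exon bases with *1700101I11Rik* on the opposite strand, which held 143 counts against 333587.

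The 17994 genes that summed to at least 100 were kept, scaled by TMM (factors 0.941 to 1.06) and tested by edgeR 4.0.16 (glmQLFit, glmQLFTest, limma 3.58.1, R 4.3.3) with Benjamini-Hochberg adjustment over all tested genes at 0.05. Cosines (24 h) were fitted to log2 CPM (prior count 2) by least squares with 30 residual degrees of freedom, in the manner of CircaCompare. DESeq2 was at 1.42.0. Scripts were tested on simulated data. Copies were found with BLAST 2.17.0 (at least 90% identity over 300 bases).

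Mice of a group differed by more than sampling noise (chi-square per gene 29.7 to 123). With 3 mice against 3 an exact permutation test cannot go below 0.1. The members and lists were chosen with earlier results of these data known. The 10 genes are all named. Of the other pathway lists and the clock genes, at most 3 genes a list with the lowest adjusted p for time are named, and any past 0.05 for genotype. *Gabarap*, *Gabarapl2*, *Bnip3l* and *1700101I11Rik* were added after their values were seen. Steps between times, gaps between peaks, overlap shares and added copies were chosen after seeing the data. DESeq2 (whole and for scaling), filters, rhythm tests, variance-stabilized counts, omitted mice and the letters in the model served as alternatives.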

Additional observations from a re-analysis of the deposited data

How the results depend on the processing

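The 8 genes that differed between sampling times were the same 8 in each of 45 fits, and *Map1lc3a* joined them in the fit without letter c. The fits were the reported one, the 36 that each left out a single mouse, the 3 without a letter, DESeq2, other scaling, other filters and the letters in the model. Letters entered as pairs of mice in the test of genotype and as a term shared by all times in the test of time. The genotype effect called 0 of the 10 genes in each of these fits, and the adjusted p of *Ulk1*, the lowest reached, stayed at or above 0.359. Tests within 1 genotype depended more on the number of mice. Without letter a, b or c in turn there were 5 to 6 genes with an effect of time in THRBWT and 4 to 5 in THRBKO livers, and 7 to 8 and 5 to 6 with a rhythm. The genes lost in such fits or without a filter on low counts were *Becn1* (adjusted p up to 0.189, edgeR), *Tfeb* (up to 0.179), *Map1lc3b* (0.0724), *Atg14* (up to 0.0597) and *Sqstm1* (0.0534), each still called with both genotypes in the model. A cosinor F test gave *Tfeb* a rhythm p of 0.0588 (adjusted) in THRBKO livers. In the same fits 0 to 2 parameters of the cosines differed between genotypes at an unadjusted p under 0.05, the peak times of *Bnip3* and *Atg14* without letter a and that of *Tfeb* without letter c, against 0 with all mice.

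Mice carry the letters a, b and c at each time. Mice of the same letter and time deviated together with a correlation over 0.1 in 9 of 18 pairs (-0.038 to 0.225). Of the 3 mice of the other genotype at the same time, 31 of 36 mice correlated best with that of their own letter. This is a sign from the data that letters share something. Numbers in the deposited column names rise from a to c in each group. For mice of the same letter and time they mostly lie close together. What these numbers mean was not given. As the labels give the letters no meaning and not every pair passed 0.1, the fits reported leave the letters out. A matching of mice across genotypes was thus not modelled in those fits. With the replicate block, the genotype effect called 0 of the 10 genes and 387 in place of 171 of all genes, the time effect 8 of the 10, and time in THRBKO livers 7 in place of 6, with *Tfeb* added at an adjusted p of 0.0147 in place of 0.0755 (edgeR). DESeq2 called 315 genes for genotype, and 42 to 85 were called without 1 letter.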
